A study of Mus musculus with 12 samples.

Results

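Cytosolic ribosomal protein genes encode the protein components of the ribosomes that translate nuclear-encoded mRNAs. They were taken as the protein-coding genes of the count table whose symbols read Rpl or Rps and a number, with at most 1 further letter a, x, l or y, together with Rplp0, Rplp1, Rplp2 and Rpsa. Pseudogenes and the Rps6k kinase genes were left out. This gave 80 members among 55471 gene IDs, with 49 named for the large subunit (Rpl, Rplp) and 31 for the small subunit (Rps, Rpsa). Of the 80 members, 75 passed the filter on low counts, beside 13866 genes in all.

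The study profiled liver RNA of C57BL/6 mice, with 4 groups and 3 samples in each. The SD group received a standard diet and no drug. The MASLD group received a MASLD diet (metabolic dysfunction-associated steatotic liver disease) and no drug. The 0.1x and 1x groups received the same MASLD diet together with Aza-TdC, a nucleoside analogue that interferes with DNA methylation, at relative doses of 0.1 and 1. No group carried a genetic change in the labels, and the sources used here state neither the composition of the diet, the absolute dose, the length of treatment nor the age and sex of the mice. Nothing in the labels says that samples are different animals, so the p-values reflect sample-to-sample spread that may be technical. Libraries held 30213048 to 41852606 counts.

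Ribosomal proteins are made in matched amounts and assembled with ribosomal RNA in the nucleolus. Their mRNAs begin with a run of pyrimidines (a TOP sequence), through which mTORC1 and its effector LARP1 control their translation and stability. The liver makes many secreted proteins and holds ribosomes in large numbers. Ribosomal protein mRNAs are also among the shortest in the cell, and measured levels of short transcripts can move with RNA quality and library preparation. Among the tested members the median transcript length was 751 bases, against 2603 bases over all genes tested. Their median GC content was 51.9%, against 50.4%.

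Pyrimidine runs near the start were looked for in the promoter sequences. RefSeq promoters (build GRCm38.p6) matched 60 of the 80 members. Those shown are of genes that the results turn on, Rpl27a for the largest fall on the MASLD diet, the close relatives Rps27 and Rps27l for their different calls on the diet, and Rps6 as the substrate of S6 kinase. Each stretch runs from 40 bases before to 20 bases from the annotated start, on the strand of the gene, with the longest pyrimidine run, or the first of equal length, in capitals. Rpl27a lies at chr7:109519155-109519214 on the plus strand, Rps27 at chr3:90213629-90213688 on the minus strand, Rps27l at chr9:66946046-66946105 on the plus strand and Rps6 at chr4:86857348-86857407 on the minus strand.
Rpl27a: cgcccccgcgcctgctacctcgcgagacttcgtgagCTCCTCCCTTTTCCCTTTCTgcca
Rps27: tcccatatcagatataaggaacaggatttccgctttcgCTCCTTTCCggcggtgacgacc
Rps27l: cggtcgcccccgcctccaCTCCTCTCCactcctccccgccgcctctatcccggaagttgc
Rps6: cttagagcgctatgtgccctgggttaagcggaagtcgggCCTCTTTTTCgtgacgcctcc
The run measures 20 bases in Rpl27a, 9 in Rps27, 9 in Rps27l and 10 in Rps6. It spans the RefSeq start in Rpl27a, Rps27 and Rps6. The GENCODE start, used for gene positions below, lies 48, 3 and 45 bases from the RefSeq start in these genes. In Rps27l the run lies before the start, as does another run of 9 that is left in lower case. A run of at least 8 pyrimidines within 50 bases of the start was present on the sense strand of 49 of the 60 promoters (81.7%), against 35.7% of all 32851 RefSeq promoters. On the opposite strand the shares were 23.3% and 38.1%. The letters CCGGAAG, a core of the sites of ETS factors such as GABP, were present on either strand of the whole 300-base window in 24 of 60 (40%), against 8.86% of all promoters. Matches of letters are descriptions and not measured sites.

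The 5 members that did not pass the filter included the 3 with restricted expression in other tissues. Over all 12 libraries, 0 counts fell on Rpl10l, the testis copy of Rpl10. Rpl39l, the testis copy of Rpl39, held 7 counts, and Rpl3l, the striated-muscle copy of Rpl3, held 14. Rps10 held 62 counts and Rpl24 held 6. Both genes, and Rpl13a with 3215 counts, overlap another annotated gene on the same strand (RPS10-NUDT3, Gm28037 and Gm45713, each with 0 counts). Whether the overlap lowered their counts was not tested, and their values cannot be read as levels. Rpl13 and Rpl19 also overlap annotated genes, but held 84643 and 69607 counts. Ribosomal protein genes have many processed pseudogenes, so all values depend on how shared reads were assigned, which no source used here states. The named pseudogenes took 0.00549% to 0.0108% of the counts of a library.

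Libraries differed in a way that followed transcript length, and this touches every result below. A smooth trend of a library's deviation with length and GC content over the other tested genes carried 22.8% of the variance of 0.1x sample 3, 18.1% of that of 1x sample 2 and 12.2% of that of MASLD sample 5. In the other 9 libraries it carried 0.301% to 9.31%. Short transcripts were relatively high in 0.1x sample 3 and low in 1x sample 2. No label names a batch or an RNA quality, and what moved these libraries was not tested. Results are therefore given both as deposited and with each library's trend removed, where the trend was fitted on genes other than the members.

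Together, the members moved as a block. A principal component analysis over the 75 genes placed 88.7% of the variance between libraries on the first axis. CPM values are counts scaled to the effective size of each library. As the mean log2 CPM relative to each gene's mean over 12 libraries, the members stood at 0.15, 0.27 and 0.52 in SD samples 3, 4 and 5. In MASLD samples 3, 4 and 5 they stood at -0.24, -0.22 and -0.40. All 3 SD libraries lay above all 3 MASLD libraries. The 0.1x samples 1, 3 and 4 stood at 0.06, 0.42 and 0.14, all above the MASLD libraries and inside or below the SD range. The 1x samples 2, 4 and 5 stood at -0.45, 0.00 and -0.25, so they spread widely and overlapped the MASLD range.

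**Figure D1:**
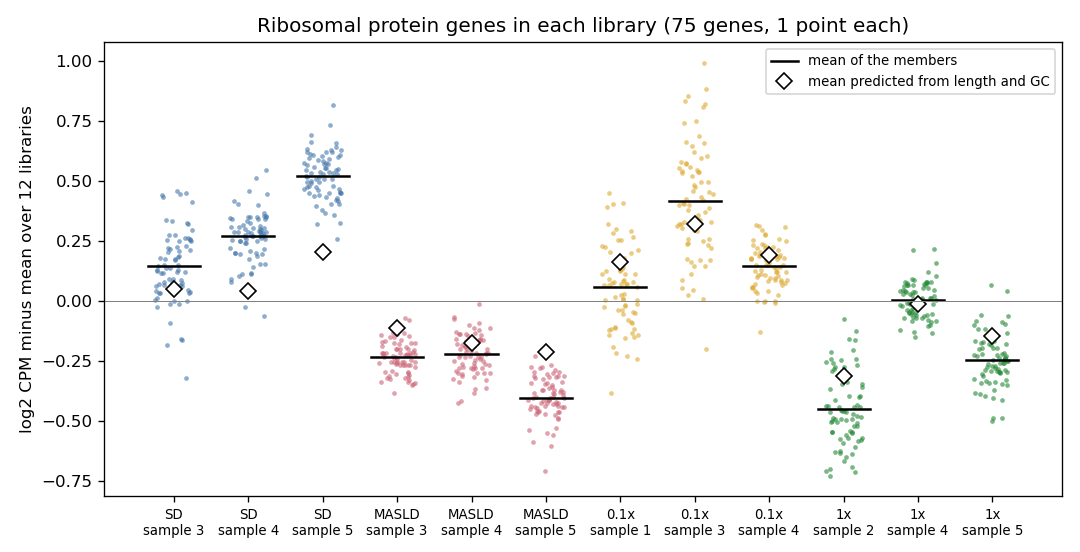
Each point is 1 of 75 ribosomal protein genes in 1 library, as log2 CPM minus that gene's mean over 12 libraries (y axis). Bars are the mean of the genes and diamonds the mean predicted from transcript length and GC content. Bars run from -0.45 in 1x sample 2 to 0.52 in SD sample 5, and the diamonds lie below the bars in the SD libraries and above them in the MASLD libraries.

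The share of all counts held by the members was 1.91% ± 0.25 (SD, n = 3) in the SD group, 1.61% ± 0.15 in MASLD, 2.04% ± 0.40 in 0.1x and 1.62% ± 0.16 in 1x. Length and GC content predicted part of these positions. In the SD samples the predicted means were 0.05, 0.04 and 0.20, each below the measured one. In the MASLD samples they were -0.11, -0.17 and -0.21, each above the measured one. In 0.1x they were 0.16, 0.32 and 0.19, and in 1x -0.31, -0.01 and -0.15. What remained after the prediction averaged 0.22 ± 0.11 (SD, n = 3) in SD, -0.12 ± 0.07 in MASLD, -0.02 ± 0.10 in 0.1x and -0.07 ± 0.08 in 1x.

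On the MASLD diet, ribosomal protein mRNAs were lower than on the standard diet. Of 75 members, 68 fell and 0 rose (edgeR quasi-likelihood test at a Benjamini-Hochberg adjusted p under 0.05), where 13.9% of all genes tested fell. The median log2 fold change of the members was -0.60, against 0.03 over all genes, and the members ranged from -0.93 to -0.29. In 72 of 75 members every MASLD sample lay below every SD sample, against 22.8% of all genes. Large-subunit genes (42 of 45 fell, median -0.60) and small-subunit genes (26 of 30 fell, median -0.62) were alike in these counts.

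Rpl27a (ENSMUSG00000046364, chromosome 7, 109519147 to 109522367, mm10), a protein of the large subunit, had the largest fall. Its level was 316, 316 and 364 CPM in the SD samples and 176, 183 and 164 CPM in the MASLD samples. The groups did not overlap, and the log2 fold change was -0.93 ± 0.14 (SE; edgeR adjusted p = 0.000154). Rpl36, also of the large subunit, measured 166, 214 and 258 CPM on the standard diet and 125, 112 and 101 CPM on the MASLD diet, a log2 fold change of -0.92 ± 0.18 (edgeR adjusted p = 0.0017). Rps27, a zinc-finger protein of the small subunit, measured 228, 223 and 279 CPM against 142, 146 and 110 CPM, a log2 fold change of -0.87 ± 0.20 (edgeR adjusted p = 0.00413).

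**Figure D2:**
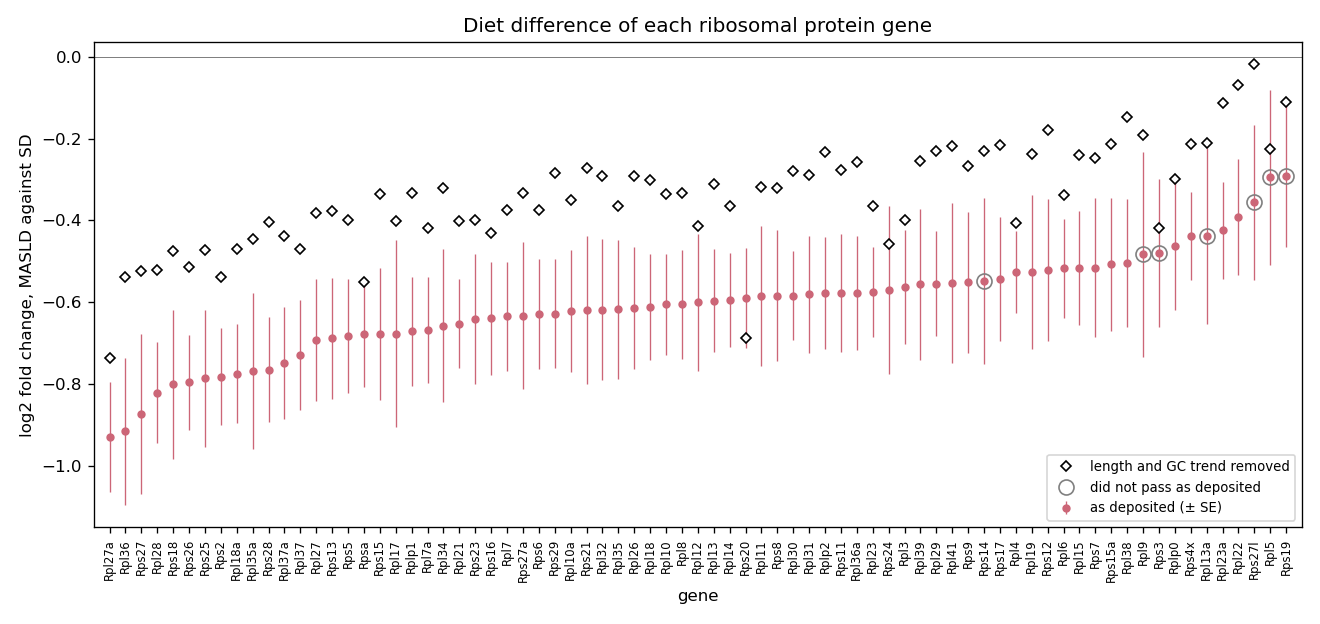
Log2 fold change of MASLD against SD (y axis) for each of the 75 tested genes (x axis), in order of size, with SE bars. Diamonds give the value after the length and GC trend of each library was removed, and circles mark the 7 genes that did not pass as deposited. All filled points lie between -0.93 and -0.29, and all diamonds lie below 0.

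Genes with named roles in the ribosome followed the same direction. Among the stalk proteins, which recruit the elongation factors, Rplp0 fell by 0.46 ± 0.16 on the log2 scale (edgeR adjusted p = 0.0388). Rplp1 fell by 0.67 ± 0.13 (edgeR adjusted p = 0.00184) and Rplp2 fell by 0.58 ± 0.14 (edgeR adjusted p = 0.00609). Rpsa, the small-subunit protein also known as the laminin receptor, fell by 0.68 ± 0.13 (edgeR adjusted p = 0.00128). Rps6, the protein phosphorylated by S6 kinase, measured 278, 343 and 387 CPM in SD and 213, 223 and 216 CPM in MASLD, and fell by 0.63 ± 0.13 (edgeR adjusted p = 0.00294). Rpl3, which lies near the peptidyl transferase centre, fell by 0.56 ± 0.14 (edgeR adjusted p = 0.00743).

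Rpl11 and Rpl5, which together with 5S RNA bind MDM2 and so link ribosome assembly to p53, gave different calls. Rpl11 measured 279, 330 and 393 CPM in SD and 244, 223 and 202 CPM in MASLD, a log2 fold change of -0.59 ± 0.17 (edgeR adjusted p = 0.019). Rpl5 measured 219, 294 and 369 CPM against 247, 253 and 219 CPM. These groups overlapped, and its log2 fold change was -0.29 ± 0.21 (edgeR adjusted p = 0.319). The difference between the 2 genes was not tested. The X-linked genes Rps4x (-0.44 ± 0.11, edgeR adjusted p = 0.00717) and Rpl39 (-0.56 ± 0.18, edgeR adjusted p = 0.0348), and Rpl41, which encodes the smallest ribosomal protein (-0.55 ± 0.20, edgeR adjusted p = 0.0465), also fell.

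The 7 members that did not pass were Rps14, Rps3, Rpl13a, Rpl9, Rps27l, Rps19 and Rpl5, with adjusted p from 0.0552 to 0.319 in the edgeR test. All had a log2 fold change below 0. Rps3, which lies at the mRNA entry channel, measured 330, 405 and 469 CPM in SD and 302, 304 and 258 CPM in MASLD without overlap (-0.48 ± 0.18, edgeR adjusted p = 0.0575).

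The count on the MASLD diet varied with the libraries left out. It was 45 without SD sample 5 and 46 without MASLD sample 5, with 0 members higher in either case. There 62 and 65 of 75 members had an unadjusted p under 0.05 in edgeR, against 70 in the main fit. Without MASLD sample 3, MASLD sample 4, SD sample 4 or SD sample 3 the count was 54, 57, 60 or 69. All 75 members kept their direction in each of these fits. Such fits hold fewer samples, and their share of all genes called is not given, so the part of single libraries cannot be told from that of sample number. Scaling by total counts alone left 10 members lower, since it moved the median of all genes to 0.39. Relative to that median the members stood at -0.63, as they did with the main scaling.

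Of the median of -0.60, a value of -0.30 was predicted from length and GC content. The prediction from length alone was also -0.30, and that from GC content alone was -0.01. Every one of the 75 members lay below the value predicted for its own length and GC content. With the trend removed from each library, 44 members fell and 0 rose, against 14.3% of all genes falling, and the median was -0.33. Rpl27a then had a log2 fold change of -0.74 ± 0.09 (edgeR adjusted p = 5.23e-05), Rpsa -0.55 ± 0.11 (0.00221) and Rps6 -0.37 ± 0.10 (0.0123). Rplp0, Rplp2, Rpl11, Rpl39, Rps4x and Rpl41 no longer passed, with adjusted p from 0.0685 to 0.282.

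Members at the ends of the annotated length range show the contrast. Rps28, with the shortest transcript (271 bases), measured 188, 167 and 201 CPM in SD and 110, 115 and 102 CPM in MASLD. Its log2 fold change was -0.77 ± 0.13 as deposited, where -0.41 was predicted, and -0.40 ± 0.08 with the trend removed (edgeR adjusted p = 0.00265). Rpl38 (345 bases) moved from -0.50 ± 0.16 (edgeR adjusted p = 0.0259) to -0.15 ± 0.11 (0.335). Rps20 has the longest of the chosen transcripts (3706 bases, picked from 3 annotated for the gene), for which 0.10 was predicted. It measured 261, 237 and 278 CPM against 176, 180 and 159 CPM, a log2 fold change of -0.59 ± 0.12 (edgeR adjusted p = 0.00235) that was -0.69 ± 0.12 with the trend removed (0.000685). Which Rps20 transcript these livers expressed was not tested, and its prediction and trend-removed values hold only for the chosen length.

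**Figure D3:**
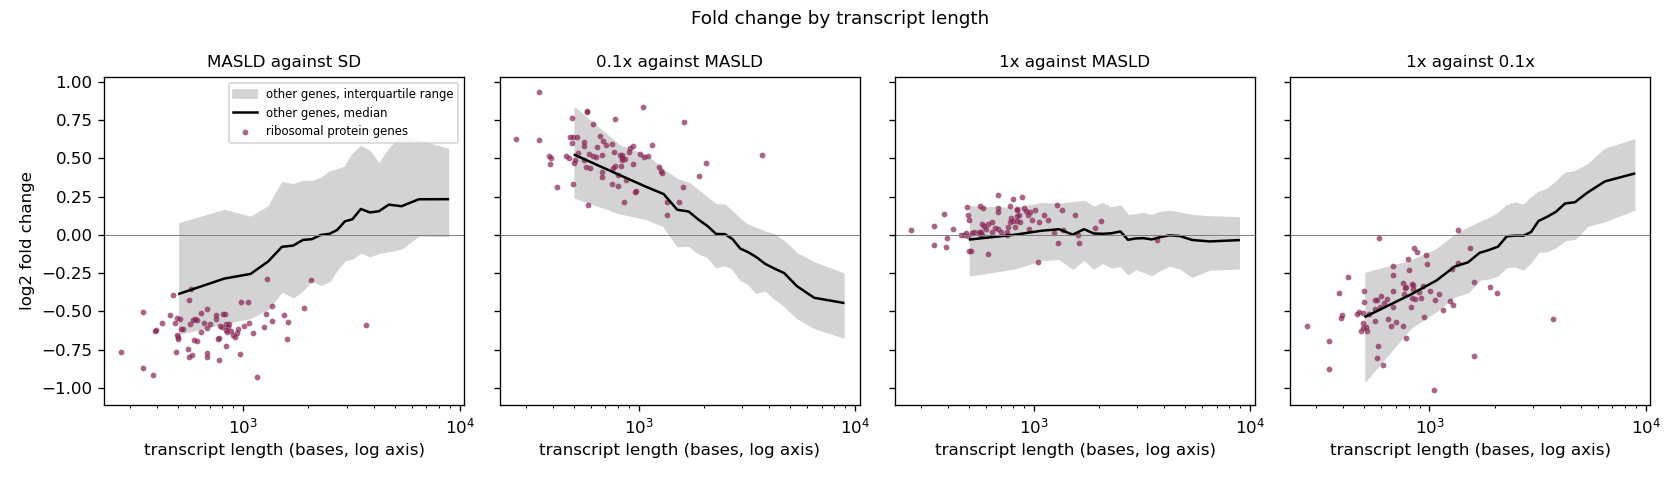
Log2 fold change (y axis) against transcript length in bases (x axis, log scale) in 4 comparisons. The line and grey band are the median and interquartile range of other tested genes in 20 length bins, and each point is 1 ribosomal protein gene. The points lie below the line for MASLD against SD (75 of 75 below the value predicted for them) and around it for 1x against 0.1x (38 of 75 below). For 0.1x against MASLD 23 of 75 were below, and for 1x against MASLD 18 of 75.

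Other gene lists are given for comparison, beside 13.9% of all genes that fell and 15.6% that rose. Mitochondrial ribosomal proteins, which serve translation inside mitochondria, fell in 26 of 77 tested genes with a median of -0.29, and 18 fell with the trend removed (median -0.13, with 3 rising). Nuclear-encoded subunits of oxidative phosphorylation, with a median length of 680 bases close to that of the cytosolic genes, fell in 39 of 72 (median -0.45), and 15 of 72 fell with the trend removed (median -0.16). Proteasome subunits fell in 6 of 38, or 15.8%, which is near the share of all genes, and rose in 1. Among 20 translation factors and other TOP mRNAs, 8 fell and 1 rose (median -0.32), and 6 fell and 1 rose with the trend removed (median -0.22). The elongation factor subunit Eef1d fell by 0.61 ± 0.11 (edgeR adjusted p = 0.00103), and Nap1l1, a histone chaperone, rose by 0.68 ± 0.14 (0.00283).

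Ribosome biogenesis factors did not show a common fall. Of 40 tested, 4 fell (10%) and 2 rose (5%), with a median of -0.04, and neither share exceeded that of all genes. With the trend removed 7 of 40 fell and 2 rose (median -0.06), beside 14.3% of all genes that fell. Emg1, a methyltransferase of 18S ribosomal RNA, fell by 0.93 ± 0.12 (edgeR adjusted p = 4.07e-05), and Rrp12, an export factor for ribosomal subunits, rose by 0.72 ± 0.21 (0.0197). Among 22 regulators of the mTORC1 and MYC pathways, 3 rose (13.6%, near the 15.6% of all genes) and 1 fell. Mtor itself rose by 0.92 ± 0.15 (0.000524), and Akt1s1 fell by 0.29 ± 0.10 (0.0491). With the trend removed 3 of these regulators rose and 3 fell. Of 6 ribosomal protein genes listed from outside the naming pattern, 3 fell and 0 rose (median -0.51), and with the trend removed 2 fell and 1 rose. Fau, a small-subunit protein gene of that list, fell by 0.89 ± 0.17 (0.00134). Rps3a1, which is in neither list, fell by 0.48 ± 0.13 (0.013).

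**Figure D4:**
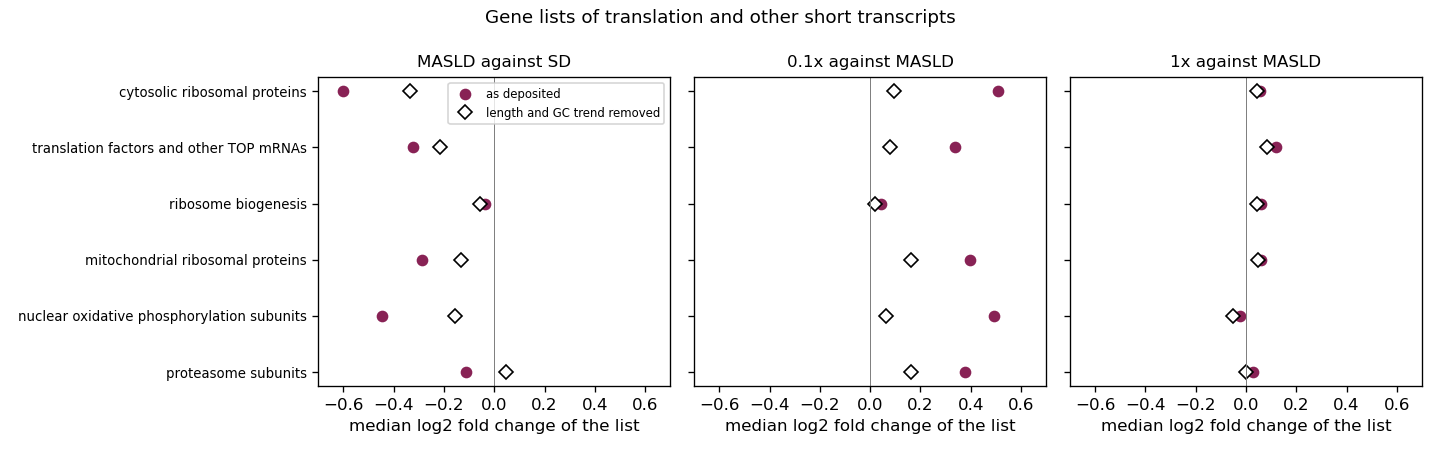
Median log2 fold change (x axis) of 6 gene lists in 3 comparisons, as deposited (filled) and with the length and GC trend of each library removed (diamonds). Ribosomal proteins move from -0.60 to -0.33 for MASLD against SD and from 0.51 to 0.09 for 0.1x against MASLD.

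Cell type markers moved in the same comparison. All 8 hepatocyte markers fell, with a summed level of 166727 to 176742 CPM in SD and 82999 to 103780 CPM in MASLD. All 8 macrophage markers rose, from 90.3 to 142 CPM in SD and 178 to 258 CPM in MASLD. Stellate cell markers rose in 5 of 5, endothelial markers in 4 of 5 and cholangiocyte markers in 3 of 5, and every marker of these 5 lists passed the filter on low counts. Of the T and NK cell markers 1 of 9 tested fell, and the B cell markers summed to 1.42 to 8.37 CPM in SD and 1.67 to 3.49 CPM in MASLD. In bulk liver, fewer cells of a type and less RNA per cell cannot be told apart, and the part of these markers in the ribosomal protein values was not tested.

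At the 0.1x dose the members were higher than in the untreated MASLD group. Of 75 members, 43 rose and 0 fell in the edgeR test, where 6.08% of all genes rose, and the median log2 fold change was 0.51. In 70 of 75 members every 0.1x sample lay above every MASLD sample, against 16.8% of all genes. The largest rise was that of Rps27, with 237, 327 and 196 CPM in 0.1x and 142, 146 and 110 CPM in MASLD, a log2 fold change of 0.93 ± 0.20 (edgeR adjusted p = 0.0129). Rps27l rose by 0.81 ± 0.19 (0.0172), Rpl39 by 0.73 ± 0.19 (0.0228) and Rpl27a by 0.59 ± 0.13 (0.0155). Rpl13a, with the low count and the overlap given above, rose by 0.84 ± 0.22 (0.0236). Rplp2, whose samples did not overlap either, had 0.31 ± 0.14 (0.137).

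This rise was close to what transcript length predicted. Length and GC content together carried 25.6% of the variance of the fold changes of other genes, against 4.14% for MASLD against SD, and predicted a median of 0.41 for the members. Of 75 members, 23 lay below their predicted value and the others above it. With the trend removed, 1 member rose, where 1.33% of all genes rose, and the median was 0.09. That member, named after its value was seen, was Rps20, whose prediction rests on the long annotated transcript given above. Rps27 was then at 0.35 ± 0.13 (edgeR adjusted p = 0.159), and Rplp2 turned to -0.19 ± 0.09 (0.264).

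Other lists differed from one another at the 0.1x dose. Oxidative phosphorylation subunits rose in 36 of 72 (median 0.49), mitochondrial ribosomal proteins in 29 of 77 and proteasome subunits in 21 of 38, beside 6.08% of all genes. Once the trend was removed, 2 of 72, 8 of 77 and 2 of 38 rose, beside 1.33% of all genes, so the mitochondrial ribosomal proteins stood furthest above that share. Translation factors and other TOP mRNAs rose in 6 of 20, and in 2 of 20 with the trend removed. Ribosome biogenesis factors rose in 1 and fell in 2 of 40 (median 0.04), where 7.09% of all genes fell. Regulators of mTORC1 and MYC, with a median length of 4030.5 bases, rose in 1 and fell in 6 of 22 (median -0.28). With the trend removed 0 of these regulators rose and 1 fell (median -0.06). Among the hepatocyte markers 1 of 8 rose, with a summed level of 88402 to 135019 CPM, and among the macrophage markers 1 of 8 fell. Their part in the result was not tested.

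The count at the 0.1x dose varied with the libraries. It was 2 without MASLD sample 5, 10 without MASLD sample 3, 10 without MASLD sample 4 and 18 without 0.1x sample 3. In the same order 54, 58, 65 and 49 of 75 members had an unadjusted p under 0.05 in edgeR. These fits hold fewer samples, and the share of all genes called in them is not given. In each case 0 members fell, and the medians ran from 0.40 to 0.55.

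At the 1x dose no difference from the untreated MASLD group was called. None of 75 members passed in edgeR, against 3.11% of all genes in either direction, 1 had an unadjusted p under 0.05, and DESeq2 called 0. The median log2 fold change was 0.06 and the members ranged from -0.17 to 0.26. In the 1x samples Rpl27a measured 157, 217 and 187 CPM and Rps27 measured 111, 175 and 128 CPM, both overlapping the MASLD samples. Length and GC content predicted a median of 0.02 here and carried 0.374% of the variance, as the trends of the 2 groups were alike on average. The median was 0.17 without 1x sample 2 and -0.07 without 1x sample 4. A missed threshold does not show that the 2 groups were alike.

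The 2 doses differed from each other as deposited. Against the 0.1x group, 31 members were lower and 0 higher in the 1x group, where 5.86% of all genes were lower, and the median was -0.42. The samples did not overlap in 38 of 75 members, against 14.5% of all genes. Other lists were also lower as deposited. These were oxidative phosphorylation subunits in 40 of 72 (median -0.50), mitochondrial ribosomal proteins in 15 of 77 and proteasome subunits in 16 of 38, where 3 were higher. Regulators of mTORC1 and MYC were higher in 9 of 22 and lower in 1, beside 7.13% of all genes that were higher. The largest differences among the members were those of Rpl13a, with the low count given above (-1.01 ± 0.22, edgeR adjusted p = 0.0122), Rps27 (-0.88 ± 0.20, 0.0142) and Rpl39 (-0.85 ± 0.19, 0.0129). A median of -0.39 was predicted from length and GC content. With the trend removed, 4 members passed, against 5.05% of all genes in either direction, and the median was -0.03. Named after their values were seen, these were Rps20, Rps24 and Rpl13a, which were lower, and Rpl29, which was higher. The value of Rps20 again rests on its long annotated transcript. Rps24 passed at an edgeR adjusted p of 0.0498. Its prediction of -0.18 likewise holds only for the chosen transcript (1613 bases, picked from 12 annotated for the gene). Rpl13a carries the low count and the overlap given above, so its value cannot be read as a level.

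The count between doses varied with the libraries. Without 1x sample 2 the count was 0, with 36 members at an unadjusted p under 0.05 in edgeR. It was 9 without 1x sample 5 and 17 without 0.1x sample 3, with 42 and 37 such members in that order. With both 0.1x sample 3 and 1x sample 2 left out, a choice made after seeing the data, it was 0 with a median of -0.21, and 23 members had an unadjusted p under 0.05.

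Both treated groups can be set beside the standard diet, although these comparisons share libraries with those above. In the 1x group 58 members were lower than in SD and 0 higher, where 9.84% of all genes were lower, with a median of -0.53. Rpl27a differed by -0.83 ± 0.13 (edgeR adjusted p = 0.000684), Rps27 by -0.82 ± 0.20 (0.00924) and Rpl36 by -0.78 ± 0.18 (0.00742). Without SD sample 5 the count was 19, without 1x sample 2 it was 23 and without 1x sample 5 it was 30. In the same order 51, 60 and 66 members had an unadjusted p under 0.05 in edgeR. After removal of the trend 27 members were lower, against 9.92% of all genes, and the median was -0.28. Of the members, 75 of 75 lay below their predicted value.

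In the 0.1x group 3 members were lower than in SD, where 10.9% of all genes were lower, with a median of -0.11. These were Rps2, Rpl3 and Rpl4. Rps2, a small-subunit protein at the mRNA entry site, measured 668, 765 and 811 CPM in SD and 461, 556 and 567 CPM in 0.1x, a log2 fold change of -0.50 ± 0.12 (edgeR adjusted p = 0.00798). Rpl3 differed by -0.43 ± 0.14 (0.0394) and Rpl4, which lines the exit tunnel, by -0.31 ± 0.10 (0.04). The count ran from 1 to 6 as single libraries were left out. It was 1 without SD sample 4 or 0.1x sample 1, 6 without SD sample 3 and 5 without 0.1x sample 3. Without SD sample 5 it was 2, of which 1 was higher.

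Length and GC content predicted the opposite direction in this comparison. The predicted median was 0.13, and 70 of 75 members lay below their predicted value. With the trend removed 25 members were lower, against 12% of all genes, with a median of -0.23. Rps2 was then at -0.56 ± 0.10 (edgeR adjusted p = 0.000942), Rpl3 at -0.49 ± 0.12 (0.00917) and Rpl4 at -0.40 ± 0.09 (0.0064). The medians against SD without the trend were -0.33 in MASLD, -0.23 in 0.1x and -0.28 in 1x.

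Rps27 and Rps27l, whose proteins are close relatives that take the same place in the small subunit, gave different calls for MASLD against SD, while both rose for 0.1x against MASLD as given above. The difference between them was not tested. Rps27l (ENSMUSG00000036781, chromosome 9, 66946086 to 66949516, mm10) is a p53 target. It measured 168, 179 and 249 CPM in SD, 163, 162 and 141 CPM in MASLD, 248, 335 and 233 CPM in 0.1x and 121, 196 and 149 CPM in 1x. Every MASLD sample of Rps27l lay below every SD sample. On the diet Rps27l had a log2 fold change of -0.36 ± 0.19 (edgeR adjusted p = 0.173), and -0.02 ± 0.11 with the trend removed (0.915). Rps27 (ENSMUSG00000090733, chromosome 3, 90212522 to 90213651, mm10) was at -0.52 ± 0.13 with the trend removed (0.00952).

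**Figure D5:**
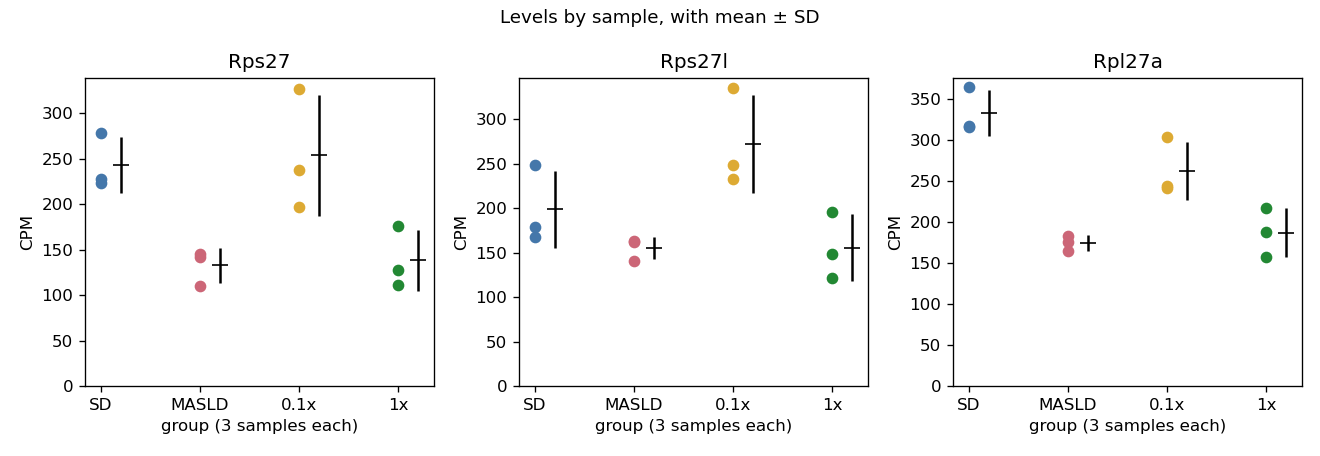
Level in CPM (y axis, from 0) of Rps27, Rps27l and Rpl27a in each sample of the 4 groups (x axis), with mean ± SD (n = 3) beside the points. Rps27 falls from 223 to 279 CPM in SD to 110 to 146 CPM in MASLD. The Rps27l samples lie at 168 to 249 CPM in SD and 141 to 163 CPM in MASLD, also without overlap.

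Within a library, log2 CPM of Rps27l minus that of Rps27 was -0.44, -0.31 and -0.17 in the SD samples. It was 0.20, 0.15 and 0.35 in MASLD, 0.06, 0.03 and 0.24 in 0.1x and 0.13, 0.16 and 0.22 in 1x. All 9 libraries on the MASLD diet lay above the 3 SD libraries, with and without the drug. The 2 genes were shown for their different calls on the diet, which rest on these same values, and no other pair of members is given beside them. This quantity compares libraries and not the absolute levels of the 2 genes, whose transcripts are 345 and 575 bases long.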

How the data were processed

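Column-purified total RNA of mouse liver was made into stranded libraries of polyadenylated RNA with 150-base read pairs, per the labels' protocols. Labels and design text name different HiSeq instruments. The submitters' processing notes name STAR 2.7.3a and the build mm10. The authors deposited whole-number counts per gene, and the tool, strand setting and annotation used for them are not given in these sources. Columns were tied to samples by title. In 1 case the title gives sample 5 where the library name gives 8, and the title was followed. No pair of replicates looked like one library deposited again (chi-square per degree of freedom at least 16.1).

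Symbols, lengths and GC content came from GENCODE vM21 (the transcript with the longest coding sequence), which matched 55144 of 55471 IDs. Counts were filtered by group, which left 13866 genes, scaled by TMM and fitted in 1 edgeR 4.0.16 quasi-likelihood model (R 4.3.3, two-sided) of all 12 libraries with group terms. The threshold was an adjusted p of 0.05 (Benjamini-Hochberg, over the 13866 genes). CPM values use TMM factors, and the SE of a log2 fold change is its size over the root of the F statistic. The length and GC trend was a natural spline with 4 degrees of freedom each, fitted per library to log2 CPM deviations (prior count 2) over non-members, centred, and entered as offsets. On simulated data for MASLD against SD, with 13866 genes, 30.9% of 81 changes of 1.5-fold and 78.2% of 55 changes of 2-fold were recovered. Fewer genes changed there than were called in the data and no length trend was added, so these shares are not the power of the tests above. DESeq2 1.42.0, other scalings, filters, fits of 2 groups, a replicate block and leaving out libraries were alternatives.

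Genes were named by rule: 18 symbols with distinct roles, up to 3 rises and 3 falls per comparison among called members with no overlap of samples and at least 1 CPM, the 3 longest and 3 shortest transcripts, and per list the smallest adjusted p per direction. Not every gene that the rule picked is described. From the lists only Eef1d, Nap1l1, Emg1, Rrp12, Mtor, Akt1s1 and Fau are, all for MASLD against SD, and no cell type marker is named. Rps4l, annotated as a pseudogene, is no member. The members, the lists and the tests were chosen with earlier results of these data known.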

Additional observations from a re-analysis of the deposited data

How the results depend on the processing

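Counts of called members are given in the order MASLD against SD, 0.1x against MASLD, 1x against 0.1x, 0.1x against SD and 1x against SD. The count for 1x against MASLD was 0 under all alternatives run. By total counts alone the counts were 10, 21, 20, 1 and 9, the 1 being higher where 3 had been lower, with Rpl5 at 0.067 and Rps27l at 0.0065 for MASLD against SD. This scaling moved the median of all genes by up to 0.39. With the length and GC trend removed the counts were 44, 1, 4, 25 and 27 (trend fitted without the members), 42, 1, 4, 25 and 26 (fitted on all genes), 43, 1, 2, 26 and 23 (length only) and 44, 2, 3, 21 and 26 (mean over transcripts). Rplp2 for 0.1x against MASLD then read -0.19, -0.20, -0.23 and -0.13 in the same order, and Rps27l for MASLD against SD read 0.085 with the mean over transcripts. Removal of the GC trend alone kept each count within 1.5 times. With the replicate block the counts were 58, 0, 0, 0 and 8, where the zeros held 68, 22 and 2 members at an unadjusted p under 0.05 in edgeR. With the replicate block and the trend removed together they were 31, 0, 0, 3 and 5, the zeros with 5 and 2 such members, and Rplp2 read -0.14. Whether the replicate numbers pair the samples was not settled. Same-numbered libraries had correlations of deviations from -0.21 to 0.08, and from -0.68 to 0.63 over the members alone. Of the 12 libraries 1 correlated best with its own number, but 0.1x sample 1 and 1x sample 2 had no library of the same number to match. With only the 2 groups compared in the fit the counts were 8 for 1x against 0.1x and 0 for 0.1x against SD (9 at an unadjusted p under 0.05). For 0.1x against SD, DESeq2 gave 6, upper-quartile factors 1 and no filter 5. Leaving out 1 library at a time gave 45 to 69, 2 to 45, 0 to 45, 1 to 6 and 19 to 67, and 0 to 0 for 1x against MASLD. Leaving out 0.1x sample 3 and 1x sample 2 together, chosen after seeing the data, gave 0 for 1x against 0.1x, with 23 members at an unadjusted p under 0.05. Predicted medians moved by less than the spread between samples with the mean over transcripts. Of 717 values of single members under alternatives, 531 kept direction and call, 173 lost the call, 5 gained it and 8 reversed. The cause of a lost call was not tested, and fewer samples are part of it where libraries were left out. With 3 samples a group, 30.9% of simulated 1.5-fold changes were recovered for MASLD against SD, where few genes changed and no length trend was added.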
